A study of Mus musculus with 8 samples.

Results

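The core circadian clock genes were described in livers of mice heterozygous for eIF2α and of wild-type mice. The 10 members were fixed by symbol: Arntl (which encodes BMAL1), Clock and Npas2 form the activator arm, and Per1, Per2, Per3, Cry1, Cry2, Nr1d1 and Nr1d2 the repressor arm. All 10 were found among the 56077 genes and loci of the deposited count table, and all 10 passed the filter on low counts that left 14261 genes. Livers came from C57BL/6 mice aged 6 months, kept in 12 h of light and 12 h of darkness with food freely available and killed at 6:30 am in the fed state. There were 4 wild-type livers and 4 livers of the genotype Eif2a flox/+, titled eIF2α flox/+. No recombinase is named for either group, and the text on husbandry describes the animals of both groups as lean and wild-type. The clock hour of lights on is not given, so the time of death cannot be placed on the light cycle.

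The clock is a loop of transcription and translation found in most cells. BMAL1 pairs with CLOCK or with its relative NPAS2, binds E-box elements and switches on the Per, Cry and Nr1d genes. PER and CRY proteins return to the nucleus and inhibit that pair, while REV-ERBα and REV-ERBβ, the products of Nr1d1 and Nr1d2, bind ROR elements (RREs) and repress Arntl, Npas2, Clock and Cry1. In liver the loop times much of metabolism, and feeding, temperature and glucocorticoids can reset it. Because transcripts of these arms peak at different hours, the balance of the arms in a single liver is a coarse reading of its clock phase.

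Promoter windows from RefSeq on GRCm38.p6, from 250 bases before to 50 bases after each annotated start, were searched on both strands for 4 elements. These were the E-box CACGTG, the E′-box CACGTT, the D-box spelled TTATGTAA or TTACGTAA, and the RRE consensus. Entries were found for 9 of the 10 genes, in 13 windows, and Per2 had none. The stretches printed next are those in which these letters were found, shown because the loop and its outputs act through such elements, on the strand of each gene from 5′ to 3′, with the matched letters in capitals. AACGTG is CACGTT read from the other strand.
Cry1, chr10:85185079-85185163, minus strand, E′-box then E-box: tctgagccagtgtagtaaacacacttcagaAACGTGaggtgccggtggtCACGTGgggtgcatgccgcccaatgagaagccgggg
Per1, chr11:69098753-69098818, plus strand, E-box: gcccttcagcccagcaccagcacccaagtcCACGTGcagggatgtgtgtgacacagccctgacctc
Nr1d1, chr11:98775378-98775435, minus strand, E′-box: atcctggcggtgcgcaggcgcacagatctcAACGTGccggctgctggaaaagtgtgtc
Cry2, chr2:92434200-92434265, minus strand, E′-box: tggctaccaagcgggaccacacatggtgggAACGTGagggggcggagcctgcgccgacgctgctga
Per3, chr4:151044786-151044900, minus strand, D-box at 2 places: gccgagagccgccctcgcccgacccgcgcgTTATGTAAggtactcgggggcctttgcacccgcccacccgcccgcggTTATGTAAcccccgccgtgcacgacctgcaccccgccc
Arntl, chr7:113207528-113207556, plus strand, RRE: ggaaggcagAAAGTAGGTCAgggacggag
The Arntl stretch lies in an annotated exon, and the other 5 lie outside the exons of their genes in GENCODE release 21. The E-box was found in 2 of the 13 windows, those of 2 of the 9 genes, and in 7.15% of all 32851 windows. The E′-box was found in 3 of the 13 windows (3 genes) and in 4.68% of all windows. The D-box was found in 1 of the 13 (1 gene) and in 1.06% of all windows, and the RRE in 1 (1 gene) and in 0.384%. A match describes letters in a window and is not evidence of binding.

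Libraries are named by their columns, W32, W33, W76 and W90 for wild type and H11, H12, H15 and H75 for heterozygotes. Totals ran from 22178028 to 28564400 counts. Values are CPM, the usual scaling of counts to library size, with TMM factors. Eif2s1, the gene of eIF2α, was at 28.4 to 32.8 CPM in wild-type and 20.5 to 25.1 CPM in heterozygous libraries, without overlap. Its log2 fold change was -0.44 with an adjusted p of 0.315 (edgeR quasi-likelihood test). The authors' deposited table gives it -0.44 and an adjusted p of 0.0208. Leaving out 1 heterozygous library, H15, changed the calls most. With all libraries edgeR called 0 genes at an adjusted p under 0.05, and without H15 it called 252. Leaving out any other library gave at most 2. Values without H15 are given where they matter, but H15 was singled out by its effect on these calls. Calls without it are therefore a description. The lowest TMM factors were those of H12 (0.909) and H75 (0.900), not of H15 (1.06). Hepatocyte markers were abundant, with summed levels of 80343 to 106963 CPM in wild-type and 92695 to 101536 CPM in heterozygous libraries over 7 genes. Nothing in the labels ties these livers to separate litters or gives the date on which each animal was killed. The p-values set the difference between groups against the spread between these samples. In a piece of liver, fewer cells of a type and less RNA per cell cannot be told apart.

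None of the 10 clock genes differed between the genotypes by edgeR's test over all genes. The share of all 14261 genes called was 0%. At an unadjusted p under 0.05 there was 1 clock gene, Per1, which was higher, against 9.34% of all genes (4.9% higher and 4.44% lower). At an adjusted p under 0.1 edgeR called 0 clock genes and 0.00701% of all genes, the same share as its newer quasi-likelihood method called at 0.05, also with 0 clock genes. Leaving out W32 gave 0.0138% of all genes and 0 clock genes. DESeq2 and limma-voom also called 0 of the 10, while DESeq2 called 1.05% of all genes and limma-voom 0%. Means were greater in heterozygotes for Arntl, Per1 and Cry1 and smaller for the other 7, and the median log2 fold change of the 10 was -0.14, beside 0.0051 for all tested genes.

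**Figure D1:**
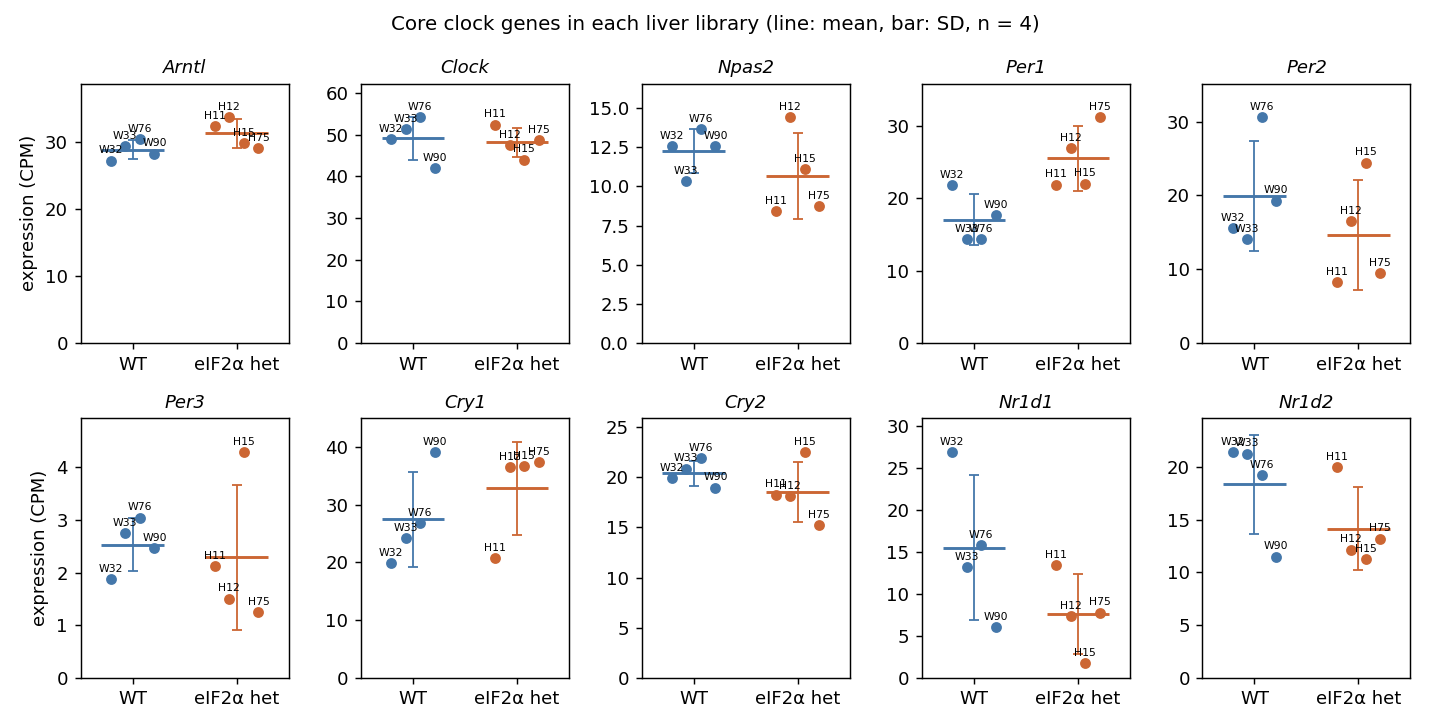
Expression of the 10 core clock genes in CPM (vertical axes from 0) for 4 wild-type (blue) and 4 eIF2α heterozygous (orange) libraries; lines are means and bars SD. Arntl stays between 27.1 and 33.6 CPM in all 8 libraries, whereas Nr1d1 spans 1.74 to 26.9 CPM, and Per1 is the 1 gene whose groups do not overlap, with 21.87 CPM in W32 and 21.93 CPM in H11.

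Arntl, the activator without which the loop stops, was the steadiest member. It was at 27.1, 29.3, 30.4 and 28.2 CPM in W32, W33, W76 and W90, and at 32.3, 33.6, 29.8 and 29.1 CPM in H11, H12, H15 and H75. H11 and H12 lay above the wild-type range, and H15 and H75 lay within it. The log2 fold change was 0.12 (SE 0.083, adjusted p = 0.687, edgeR), and 0.080 without H12. Its SD within groups was 0.085 on the log2 scale, and 4.73% of tested genes had a smaller one, against a median SD of 0.24 over all tested genes. Per kilobase of the length in the authors' deposited table, Arntl had the highest level of the 10 genes in both groups, at 11.7 ± 0.570 CPM per kilobase in wild type and 12.7 ± 0.859 in heterozygotes (SD, n = 4 each).

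Clock, the partner of BMAL1, was also steady. It was at 48.9, 51.3, 54.1 and 42.0 CPM in wild-type libraries and at 52.4, 47.5, 44.0 and 48.6 CPM in heterozygous ones, in the order given above. All heterozygous values lay within the wild-type range, and the log2 fold change was -0.028 (SE 0.099, adjusted p = 0.950, edgeR). Its sign turned without W76 (0.023) or without H15 (0.012).
Npas2, which can stand in for Clock, was at 12.6, 10.3, 13.7 and 12.6 CPM in wild type and at 8.43, 14.4, 11.1 and 8.76 CPM in heterozygotes. H11 and H75 were below every wild-type library and H12 was above them, so the groups overlapped (log2 fold change -0.20, SE 0.18, adjusted p = 0.753, edgeR). It was -0.38 without H12, -0.10 without H11 and -0.12 without H75.

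Per1, the Period gene that responds fastest to hormonal and cyclic AMP signals, was the 1 member whose groups did not overlap. It was at 21.9, 14.4, 14.4 and 17.7 CPM in W32, W33, W76 and W90, and at 21.9, 27.0, 22.05 and 31.2 CPM in H11, H12, H15 and H75. H11 exceeded W32 only beyond the first decimal (21.93 against 21.87 CPM), so the separation rests on a margin far under the spread within groups. Means were 17.1 ± 3.55 and 25.5 ± 4.45 CPM (SD, n = 4 each), 1.49-fold apart (log2 fold change 0.58, SE 0.17). The unadjusted p was 0.0061 and the adjusted p 0.386 (edgeR), and the adjusted p was 0.0936 with DESeq2 and 0.430 with limma-voom. Over all genes, 2.06% were without overlap in this direction and 2.32% in the other. In the authors' deposited table Per1 had a log2 fold change of 0.58 and an adjusted p of 0.0988. Without H15 the log2 fold change was 0.64 and edgeR's adjusted p 0.112. DESeq2 without H15, added after seeing the data, called Per1 (adjusted p = 0.0216) along with 5.36% of all genes. The adjusted p was between 0.0216 and 0.744 over 17 alternatives. Markers of neutrophils, 5 of 5 present in the table and none at 0 throughout, of which 2 passed the filter and both were higher at an unadjusted p under 0.05, summed to 0.303 to 0.749 CPM in wild-type and 0.637 to 3.47 CPM in heterozygous libraries. Their part in the Per1 values was not tested.

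Per2, a light- and temperature-responsive Period gene, varied among animals of both genotypes. It was at 15.6, 14.0, 30.6 and 19.3 CPM in wild type and at 8.27, 16.5, 24.4 and 9.51 CPM in heterozygotes. H11 and H75 lay under every wild-type library, and H12 and H15 fell within the wild-type range. The log2 fold change was -0.43 (SE 0.35, adjusted p = 0.732, edgeR), -0.79 without H15, -0.15 without W76, -0.24 without H11 and -0.28 without H75.
Per3, the least abundant member, rested on 25 to 101 reads per library. It was at 1.87, 2.75, 3.04 and 2.46 CPM in wild type and at 2.13, 1.5, 4.29 and 1.25 CPM in heterozygotes. H15 held the highest and H75 the lowest value of all 8 libraries. The log2 fold change was -0.14 (SE 0.37, adjusted p = 0.932, edgeR), and its sign turned without H12 (0.022) or without H75 (0.057). It was -0.63 without H15, -0.26 without W32 and -0.037 without W76. Unlike Per1, whose window holds an E-box, the Per3 window holds the D-box letters at 2 places and no E-box.
The ratio of Per2 to Per1, which does not depend on scaling between libraries, was 0.712, 0.975, 2.13 and 1.09 in wild type and 0.377, 0.613, 1.11 and 0.304 in heterozygotes. It was below the wild-type range in H11, H12 and H75 and within it in H15.

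Cry1, the stronger repressor of the pair of cryptochromes, took low or high levels with few between. It was at 19.9, 24.2, 26.8 and 39.1 CPM in W32, W33, W76 and W90, and at 20.8, 36.5, 36.7 and 37.4 CPM in H11, H12, H15 and H75. W90 therefore resembled 3 heterozygous libraries, and H11 resembled the other wild-type libraries. The groups overlapped (log2 fold change 0.26, SE 0.23, adjusted p = 0.758, edgeR). It was 0.13 without W32, 0.47 without W90 and 0.42 without H11.
Cry2, its paralog, was at 19.9, 20.9, 21.9 and 19.0 CPM in wild type and at 18.3, 18.1, 22.5 and 15.3 CPM in heterozygotes. H11, H12 and H75 were below all wild-type libraries and H15 was above them (log2 fold change -0.14, SE 0.12, adjusted p = 0.748, edgeR). It was -0.24 without H15 and -0.058 without H75. Of its annotated exonic bases, 4.67% are shared with D930015M05Rik on the other strand.

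Nr1d1, the heme-binding repressor REV-ERBα, varied more than any other member. It was at 26.9, 13.2, 15.8 and 6.05 CPM in W32, W33, W76 and W90, and at 13.4, 7.32, 1.74 and 7.75 CPM in H11, H12, H15 and H75. The highest library had 15.4 times the level of the lowest, on 41.4 estimated reads in H15 and 789 in W32. Means were 15.5 ± 8.64 and 7.55 ± 4.75 CPM (SD, n = 4 each), and the ranges overlapped. The log2 fold change of -1.04 was the largest in size of the 10 genes, but its SE was 0.54 and its adjusted p 0.590 (edgeR). It was -0.63 without W32 and -0.71 without H15. Its SD within groups was 1.09 on the log2 scale, and 97.5% of tested genes had a smaller one. Exons of Nr1d1 share 8.55% of their bases with Thra on the other strand. The strand setting of the counting was not stated in the labels, so reads of this shared stretch cannot be assigned to Nr1d1 or Thra.
Nr1d2, which encodes REV-ERBβ, followed Nr1d1 over a narrower range. It was at 21.4, 21.3, 19.3 and 11.5 CPM in wild type and at 19.999, 12.2, 11.3 and 13.2 CPM in heterozygotes. W90, H12, H15 and H75 were at 11.3 to 13.2 CPM and the other 4 libraries at 19.3 to 21.4 CPM, with none between (log2 fold change -0.37, SE 0.23, adjusted p = 0.652, edgeR). It was -0.59 without H11.

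For Nr1d1, Nr1d2 and Cry1, the libraries did not sort by genotype. W90, H12, H15 and H75 had the 4 lowest values of Nr1d1 and of Nr1d2 and the 4 highest values of Cry1, and these are 1 wild-type and 3 heterozygous livers. The ratio of Nr1d1 to Cry1 was 1.35, 0.547, 0.591 and 0.155 in W32, W33, W76 and W90, and 0.644, 0.200, 0.0475 and 0.207 in H11, H12, H15 and H75. Markers of Kupffer cells, the macrophages of the liver, also differed between libraries. All 5 were present in the table, none at 0 throughout, and summed to 179, 96.6, 117 and 72.3 CPM in wild type and to 177, 100, 73.6 and 145 CPM in heterozygotes. W90 and H15, with the lowest Nr1d1, had the lowest Kupffer sums, whereas H75 had a high sum with low Nr1d1. The part of these cells in the clock values was not tested.

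**Figure D2:**
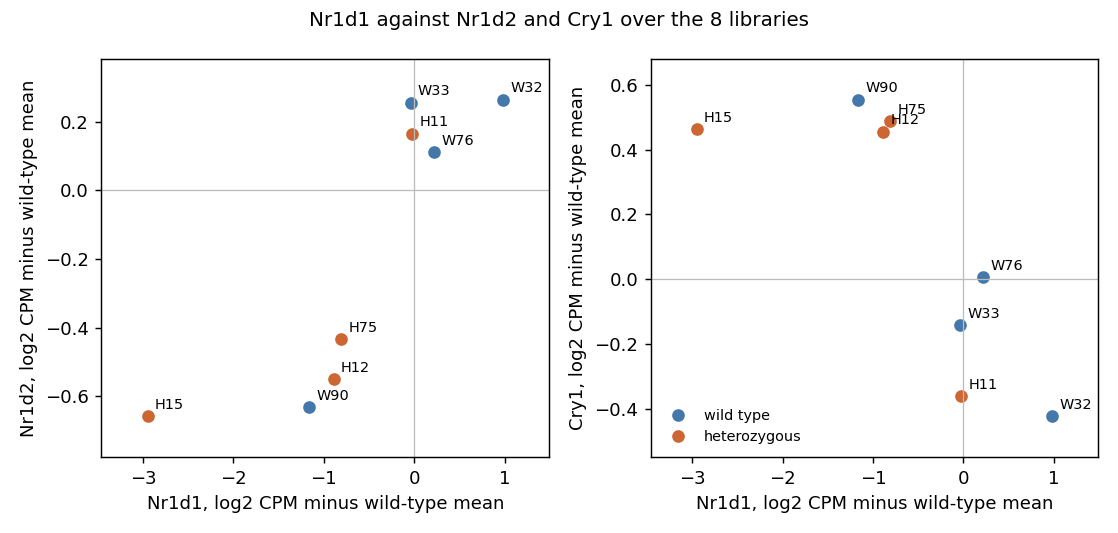
Each point is a library; the horizontal axes give Nr1d1 and the vertical axes Nr1d2 (left) or Cry1 (right), as log2 CPM minus the wild-type mean. W90, H12, H15 and H75 have the lowest Nr1d1 and Nr1d2 and the highest Cry1, apart from W32, W33, W76 and H11. On the Nr1d1 axis H15 (-2.95) lies far from W90 (-1.16), H12 (-0.89) and H75 (-0.81).

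Correlations over the 8 libraries were computed for all 45 pairs of members. At an adjusted p under 0.05 (exact two-sided permutation, Benjamini-Hochberg over 45 pairs) 1 pair passed by Pearson's r, Nr1d1 with Nr1d2, and 0 by Spearman's rho (adjusted p = 0.103 for that pair). The libraries form separate sets for Nr1d2 and Cry1, and each set holds fewer than 6 libraries. No pooled coefficient is therefore given for pairs of Nr1d1, Nr1d2 and Cry1, and the relation within a set could not be tested. Per3 and Cry2 varied along a continuous range, with Pearson's r = 0.90 (exact permutation p = 0.0026, adjusted p = 0.0592) and Spearman's rho = 0.93 (exact permutation p = 0.0022, adjusted p = 0.1004) over 8 libraries. Without H15 and H75, the libraries farthest from the median of Per3, r was 0.78 over 6 libraries, and with group means removed it was 0.91. This pair did not pass the correction. With library totals in place of TMM factors the pair that passed was Per3 with Cry2 (adjusted p = 0.0201) and no longer Nr1d1 with Nr1d2 (adjusted p = 0.127).

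A clock phase index was taken per library as the mean of the 3 activators minus the mean of the 7 repressors, on log2 CPM relative to the wild-type mean of each gene. It is a score over the members and carries no test. It was -0.081, 0.0094, -0.040 and 0.11 in W32, W33, W76 and W90, and 0.11, 0.34, 0.13 and 0.17 in H11, H12, H15 and H75. H12 stood highest, and H11 exceeded W90 by about 0.0010. Means were 0.00 in wild type, by construction, and 0.19 in heterozygotes, with SDs of 0.084 and 0.10 (n = 4 each). The activator arm ranged from -0.068 to 0.13 in wild-type and from -0.16 to 0.14 in heterozygous libraries, so it overlapped. The repressor arm ranged from -0.18 to 0.17 and from -0.32 to -0.20, so it did not overlap. The share of counts from mitochondrial genes did not overlap either, at 6.36 to 7.34% in wild-type and 5.26 to 6.32% in heterozygous libraries, and its part in these differences was not tested. Within the repressor arm Per1 and Cry1 had means in the other direction from the other 5, so the arm did not move as 1 block. In H15 the arm was low through Nr1d1 (-2.95, on 41.4 estimated reads) and Nr1d2 (-0.66). Per1, Per2, Per3, Cry1 and Cry2 were above the wild-type mean there (0.39, 0.37, 0.78, 0.46 and 0.14). No alternative left out Nr1d1 alone. By these values, the remaining repressors in H15 averaged above the wild-type mean. The lack of overlap of the repressor arm therefore rests on Nr1d1 in that library. With an activator arm of -0.078, the index of H15 without Nr1d1 would lie below the wild-type mean. The index difference between the groups without Nr1d1 was not computed. The index difference was 0.14 to 0.23 with each library left out, and 0.27 with Cry1 left out of the repressor arm. With the repressor arm narrowed to Nr1d1, Nr1d2 and Per3 the difference was 0.56, and with medians in place of means it was 0.12.

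**Figure D3:**
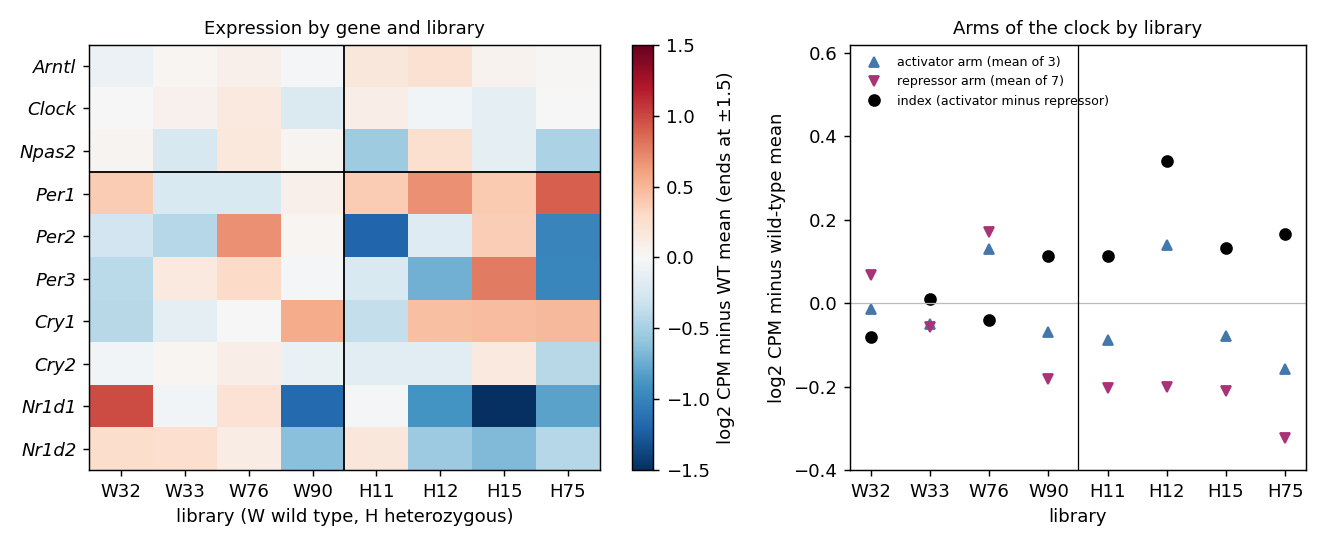
Left, log2 CPM minus the wild-type mean for 10 genes (rows, activators above the line) in 8 libraries (columns), with colours ending at ±1.5, a limit that Nr1d1 in H15 (-2.95) passes; right, arm means and the index per library on the same scale. The index is 0.11 to 0.34 in heterozygous and -0.081 to 0.11 in wild-type libraries, while the repressor rows do not share 1 colour.

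Per kilobase, the order of levels in wild type was Arntl, Cry2, Cry1, Clock, Nr1d1, Nr1d2, Per1, Per2, Npas2 and Per3. Arntl (11.7 CPM per kilobase) did not overlap with Cry2 (9.45 ± 0.586), and Per3 (0.422 ± 0.0834) did not overlap with Npas2 (2.90 ± 0.332). Every other neighbour in that order overlapped with the next in its range over 4 libraries. In heterozygotes the order was Arntl, Cry1, Cry2, Clock, Per1, Nr1d2, Nr1d1, Npas2, Per2 and Per3. There the neighbours without overlap were Cry2 and Clock, Per1 and Nr1d2, and Per2 and Per3. Per1 moved from place 7 to place 5, at 3.69 ± 0.766 CPM per kilobase in wild type and 5.51 ± 0.961 in heterozygotes (SD, n = 4 each).

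The PAR bZIP factors Dbp, Tef and Hlf, which act on D-boxes downstream of the loop, and Nfil3, which competes with them, were not called either (0 of 4 by edgeR, DESeq2 and limma-voom, 1 at an unadjusted p under 0.05). Dbp, a strongly rhythmic output in liver, was low in every library, at 0.617 to 1.10 CPM in wild type and 0.539 to 1.10 CPM in heterozygotes. Tef was at 35.9 to 50.8 and 22.2 to 50.9 CPM, and Hlf at 28.9 to 38.9 and 22.7 to 36.1 CPM. Their log2 fold changes were -0.40 (SE 0.23, adjusted p = 0.631) and -0.30 (SE 0.16, adjusted p = 0.611, edgeR). H15 held the highest heterozygous value of both. DESeq2 without H15, added after seeing the data, called Tef (-0.65, adjusted p = 0.0237), along with 5.36% of all genes.
Nfil3 was at 48.5, 45.7, 48.3 and 52.6 CPM in wild type and at 75.4, 85.3, 45.9 and 76.3 CPM in heterozygotes. H11, H12 and H75 lay above every wild-type library and H15 within their range (log2 fold change 0.54, SE 0.17, adjusted p = 0.405, edgeR). Without H15 the log2 fold change was 0.70 and edgeR called it (adjusted p = 0.0080), as it did 1.74% of all genes.

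**Figure D4:**
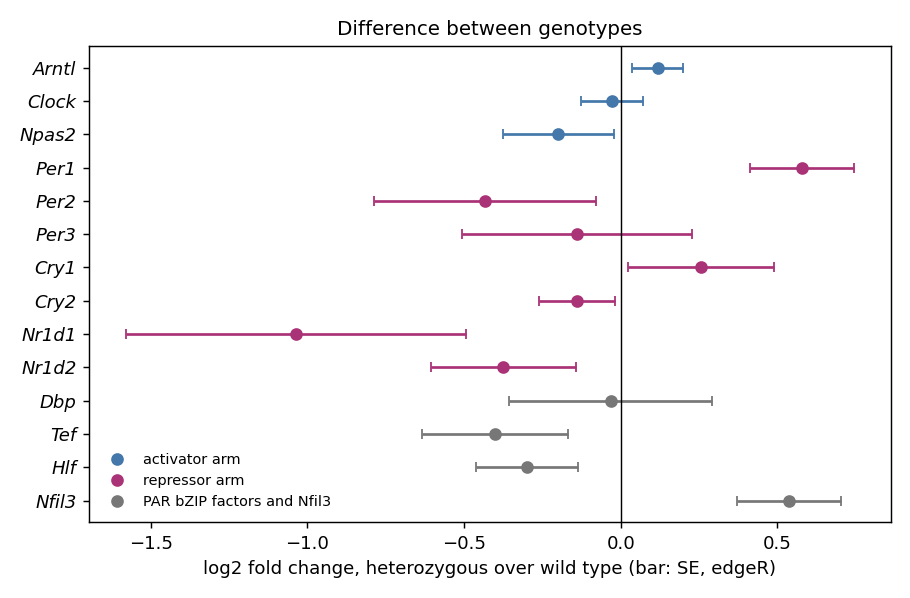
Points give the log2 fold change of heterozygous over wild-type livers (horizontal axis) with SE bars from edgeR, for activators (blue), repressors (purple) and the D-box factors (grey), all 8 libraries included. Per1 (0.58) and Nfil3 (0.54) lie to the right and Nr1d1 (-1.04) to the left with the widest bar, and none passed the test over all genes.

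Of 31 further regulators of the loop, 30 were tested, since Rorb was at 0 in all libraries. EdgeR called 0 of 30, as did DESeq2 and limma-voom, and 1 was higher at an unadjusted p under 0.05. That gene, the deadenylase Noct, was at 46.6, 27.3, 55.7 and 34.0 CPM in wild type and at 54.3, 94.5, 40.8 and 135 CPM in heterozygotes (log2 fold change 0.99, SE 0.36, adjusted p = 0.466, edgeR). H12 and H75 lay above the wild-type range and H11 and H15 within it. DESeq2 without H15 called Noct (1.21, adjusted p = 0.0020), along with 5.36% of all genes. Rora, an activator that competes with REV-ERB at RREs, had a log2 fold change of -0.0048. Bhlhe40 and Bhlhe41, E-box repressors, had 0.27 (SE 0.25) and 0.079 (SE 0.62), and the BMAL1 repressor Ciart -0.53 (SE 0.34). Bhlhe41 rested on 4 to 30 reads per library and Ciart on 10 to 33. Timeless had 0.38, the kinase gene Gsk3b -0.19 and Cipc, an inhibitor of CLOCK, 0.11. The median over the 30 was -0.017.

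Of 25 genes of liver metabolism and growth control with known daily rhythms, edgeR and limma-voom called 0, and DESeq2 called 2. At an unadjusted p under 0.05, 4 were higher and 4 lower, against 4.9% and 4.44% of all genes, and DESeq2 called 1.05% of all genes. Por, the electron donor of cytochromes P450, was at 113 to 181 CPM in wild-type and 182 to 262 CPM in heterozygous libraries, without overlap (log2 fold change 0.54, adjusted p = 0.389, edgeR). Cys1 did not overlap in the other direction, at 3.24 to 4.54 and 1.85 to 2.55 CPM (-0.82). DESeq2 called Cys1 (adjusted p = 0.0190). Leap2 had -0.42 and Cdkn1a, a cell cycle inhibitor, 0.69, with overlap in both. Groups did not overlap for 4.38% of all genes, and for 3 of these 25. The median was 0.0018.

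Of 20 genes that report temperature, glucocorticoid and cyclic AMP cues to the clock, edgeR and limma-voom called 0, and DESeq2 called 1. At an unadjusted p under 0.05, 6 were higher and 1 lower, and the median was 0.29. Over all genes these shares were 1.05% for DESeq2, 4.9% higher and 4.44% lower. Sik1, a kinase gene induced by CREB as Per1 is, was at 8.79, 8.50, 8.32 and 11.04 CPM in wild type and at 11.7, 37.6, 16.6 and 18.2 CPM in heterozygotes. The groups did not overlap (log2 fold change 1.20, SE 0.31, adjusted p = 0.355, edgeR), and DESeq2 called it (adjusted p = 0.0180). Crem (0.47) and Nr4a1 (1.70), also CREB targets, and Fkbp5 (0.67), a glucocorticoid target, overlapped between groups, as did the coactivator Ppargc1a (-0.63). Cirbp, a cold-inducible gene, was at 7.48 to 17.2 and 7.40 to 12.7 CPM (-0.32).

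The genes most like 3 of the members in pattern were sought among 11186 tested genes of at least 1 CPM, by Pearson's r of log2 CPM over the same 8 libraries, as a description without a test. The libraries behind the points are the same 8, with the same depth and scaling, for every gene. For Arntl they were Foxj3 (0.97), Trp53bp2 (0.95), Smg8 (0.94) and Cbarp (0.90). For Nr1d1 they were Hectd2os (0.98), Zfp654 (0.97), Dmxl1 (0.96), Zfp229 (0.96) and Snhg14 (0.95). Hectd2os ran from 16.4 to 86.3 CPM, whereas Zfp654 ran only from 10.6 to 12.8 CPM. For Per2 they were Snx11 (0.95), Lrrc57 (0.95), Khk (0.94), Epm2a (0.93) and Mthfd2l (0.93), Khk being the fructose kinase gene.

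On GRCm38, in GENCODE release 21, the 10 genes are protein-coding. Arntl (ENSMUSG00000055116) lies on chromosome 7 from 113207465 to 113314126, Per1 (ENSMUSG00000020893) on chromosome 11 from 69095217 to 69109960, and Nr1d1 (ENSMUSG00000020889) on chromosome 11 from 98767932 to 98775333. Cry1 (ENSMUSG00000020038) lies on chromosome 10 from 85131700 to 85185064 and Nr1d2 (ENSMUSG00000021775) on chromosome 14 from 18204054 to 18239127.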

How the data were processed

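Total RNA of 8 livers, depleted of ribosomal RNA per the labels' protocols, was sequenced. Per the submitters' processing notes, mm10 served as build; SAMtools 1.9, GATK 3.8, Bowtie2 2.2.9 and fastp 0.19.5 are named without a role. No source names the counting program. The deposited values are the authors' raw estimated counts, of which 90.01% are whole. The authors' deposited table of comparisons gives a fold (ratio), a log2 fold change, a p-value and an adjusted p-value per gene, and a length in bases, per the file headers. Columns show the group by first letter and no replicate number.

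Counts were rounded, filtered with filterByExpr, given TMM factors of 0.900 to 1.06 and tested with edgeR 4.0.16 (quasi-likelihood F-test, legacy method, group as the only term) in R 4.3.3. A gene was called at an adjusted p under 0.05 (Benjamini-Hochberg over all tested genes). SE is the log2 fold change divided by the square root of F. Log2 CPM used a prior count of 0.5. Alternatives were other scalings and filters, DESeq2 1.42.0, limma-voom (limma 3.58.1), the newer quasi-likelihood method and leaving out each library. DESeq2 without H15 was added after seeing the data. Fits were tested on simulated data. No pair within a group was alike within counting noise (chi-square 22.1 to 180 per gene). Named genes are the 10 members, the D-box factors, up to 5 of lowest p per further list, and Ciart, Bhlhe40, Bhlhe41, Rora and Cirbp; a few genes that this rule names are not reported here. Members and lists were chosen with earlier results of these data known. Other marker lists of 4 or 5 genes were summed in CPM, wild-type libraries first and heterozygous second. Sinusoidal endothelium gave 97.2 to 134 and 112 to 168, and stellate cells 151 to 198 and 82.8 to 227. Cholangiocytes gave 9.83 to 16.0 and 11.2 to 49.2, the highest being H12, mostly through Sox9 (44.8). Lymphocytes gave 0.643 to 2.04 and 1.23 to 2.65. Adipocytes gave 6.22 to 13.0 and 2.38 to 7.01, with Lep at 0. Nearly all of the adipocyte sum was Cidec (6.11 to 13.0 and 2.29 to 6.97), as Adipoq and Plin1 had 0 to 2 reads per library.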

Additional observations from a re-analysis of the deposited data

Results flagged for a closer look

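Cry1 in the heterozygous library H11 was at 20.8 CPM, while H12, H15 and H75 were at 36.5 to 37.4 CPM. Its gap to the nearest library was 0.949 of the range of the 4, above Dixon's critical value for 4 samples. Of 22 such groups checked (10 genes and the index in each genotype) this was the 1 past the limit, where chance passes about 1 in 20.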

How the results depend on the processing

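With all libraries, edgeR under each planned setting (also at an adjusted p under 0.1), DESeq2 and limma-voom called 0 of the 10 clock genes, as did edgeR with each library left out. DESeq2 was run without 1 library only, H15, and called 1 gene, Per1; limma-voom was run with all libraries only. Of 170 member values under alternatives, 164 kept their direction and side of the threshold. Those that turned were Clock without W76 (0.023), without H15 (0.012) and with DESeq2 without H15 (0.016), and Per3 without H12 (0.022) and without H75 (0.057); leaving out each library gave -0.098 to 0.023 for Clock and -0.63 to 0.057 for Per3. The index difference ran from 0.14 to 0.23 when each library was left out, and was 0.56 with Nr1d1, Nr1d2 and Per3 as the repressor arm. Of the 79 tested genes of the 4 further lists, edgeR called 0, DESeq2 3, and edgeR 0 to 2 with a library left out, the 2 being Nfil3 and Cyp7a1 without H15. DESeq2 without H15 called 14. Over all genes DESeq2 called 1.05%, edgeR without H15 1.74% and DESeq2 without H15 5.36%. The count of correlated pairs, 1, was 0 with group means removed and 1, another pair, with library totals. No paired analysis was possible because the columns carry no replicate number. Among the members, Per3, at 25 to 101 reads, and Nr1d1 in H15, at 41.4, are limited most by depth. Of the further lists, Bhlhe41 (4 to 30 reads), Ciart (10 to 33) and Dbp (13.4 to 29.4) are limited more.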

Other observations

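Heat shock genes, which follow body temperature, differed widely among these livers. Hspa1b was at 92.6, 75.6, 262 and 136 CPM in W32, W33, W76 and W90, and at 65.9, 556, 48.2 and 224 CPM in H11, H12, H15 and H75 (log2 fold change 0.66, SE 0.71, adjusted p = 0.7996, edgeR). H12 was highest and H15 lowest, and both had low Nr1d1. Cyp7a1, the rate-limiting enzyme of bile acid synthesis, chosen after its values were seen, was at 61.0, 28.2, 242 and 80.0 CPM in H11, H12, H15 and H75, against 124 to 186 CPM in wild-type libraries. Without H15 edgeR called it (log2 fold change -1.45, adjusted p = 0.0498).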
